A study of Mus musculus with 18 samples.

Results

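The comparison described here was between leukocytes of the joint-draining and of the skin-draining lymph node of mice labelled as steady state, which the labels give as cells that had migrated there from the joint or the ear. Of the 18 samples of the series, 6 were used, chosen by their labels: 3 pools from the joint-draining node, titled pLN_PBS_KG, and 3 pools from the skin-draining node, titled Naive, where the site was the ear. All mice carried the Kaede transgene, which encodes a green protein that turns red under violet light, so that cells exposed to light in a joint or an ear can be recognised after they have moved elsewhere. Under the protocol given for all samples, viable CD45+ cells with the red form of the protein were sorted from digested nodes of pooled mice of 6 to 10 weeks, 1 day after exposure. The titles of the joint pools carry KG, where those of samples from the inflamed ear and its node carry KR, and what KG stands for was not given in the sources used here, so that the red sort of the joint pools rests on the shared protocol alone. Whether the cells of either node had migrated from a tissue or were resident in the node was not tested. The protocol given for all samples described transfer of OT-II CD45.1 Th1 cells, immunisation with OVA in CFA at the scruff and a later footpad or ear challenge with PBS or heat-aggregated OVA. The labels did not say which of these steps the Naive mice received, so that drained site, PBS challenge and immunisation state cannot be told apart in any difference given below.

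A lymph node collects fluid and cells from a territory of tissue. Most of its cells are lymphocytes that enter from blood, stay for hours and leave again, and a smaller stream arrives by lymph, made up chiefly of dendritic cells carrying antigen and of memory and regulatory T cells. Neutrophils, monocytes and macrophages are few in a resting node, and are known to enter one after infection, injection or immunisation. The question posed by these 6 samples is how far the cells labelled as arriving from a joint and from the skin differ in mice labelled as steady state.

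The 6 libraries held between 28577566 and 42938378 counts assigned to genes, and a count of 3 in a library corresponded to between 0.0735 and 0.102 CPM (counts scaled to library size by the TMM method), counting error only. Replicates correlated at r = 0.991 to 0.997 over log2 values and libraries of different groups at 0.975 to 0.985, across genes, which are not independent. On a principal component analysis the first component held 69.2% of the variance and separated the joint pools from the skin pools. Nothing in the labels says whether the pools were prepared on separate days, so that p-values measure the spread between these pools.

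Both sets of pools read as lymph node lymphocytes. Cd79a, a chain of the B cell receptor complex, stood at 1205, 1210.3 and 1530.3 CPM in the joint pools and 1156, 920.5 and 751 CPM in the skin pools. Cd3e, a chain of the T cell receptor complex, stood at 227, 213 and 245 CPM in the joint pools and 306, 307 and 326 CPM in the skin pools. Most transcripts listed for the cells of the labelled tissues of origin were below the filter on low counts. This held for 10 of 13 keratinocyte genes, among them Krt5 and Krt14, keratins of the epidermis with 0 counts in all 6 pools, for 3 of 5 melanocyte genes, for 4 of 5 skeletal muscle genes and for 5 of 6 genes of cartilage, bone and synovium, among them Acan and Col2a1. The 3 tested keratinocyte genes did not pass, and nearly all of their summed level came from Sfn, the regulator 14-3-3 sigma, at 55.4, 74.3 and 99.6 CPM in the joint pools and 57.9, 49.9 and 46.2 CPM in the skin pools (log2 fold change 0.57 ± 0.18 (SE), adjusted p = 0.0704), which passed without joint replicate 1 (adjusted p = 0.00835). Prg4, which encodes the lubricin of joint fluid, stood at 3.98, 3.22 and 3.62 CPM in the joint pools and 5.58, 5.58 and 7.65 CPM in the skin pools and so was lower in the joint pools (log2 fold change -0.79 ± 0.18 (SE), adjusted p = 0.0167). That test was not passed when joint replicate 2 or skin replicate 3 was left out (adjusted p up to 0.0738), and reads of the overlapping gene Tpr on the other strand could not be told apart from it. Pmel, a structural protein of pigment granules, was lower in the joint pools as well, at 8.24, 7.27 and 6.68 CPM in the joint pools and 11.8, 13.2 and 14.5 CPM in the skin pools (log2 fold change -0.83 ± 0.13 (SE), adjusted p = 0.00275), and overlaps Cdk2 and Dgka on the other strand. Tyr, tyrosinase, did not pass (log2 fold change -0.8 ± 0.34 (SE), adjusted p = 0.165). Tnnt3, a troponin of skeletal muscle, was lower in the joint pools (log2 fold change -0.8 ± 0.18 (SE), adjusted p = 0.0178), a test not passed without skin replicate 1 or 2 (adjusted p up to 0.0671). Of 6 Langerhans cell genes 3 were below the filter, among them Cd207, which encodes langerin, and Gjb2, a connexin, was called higher in the joint pools (log2 fold change 1.74 ± 0.35 (SE), adjusted p = 0.00931), a call lost without joint replicate 2 or skin replicate 2 (adjusted p = 0.0502 and 0.0574). Gjb2 would not have met the filter on the skin pools alone, so that its call is in part fixed by its level in the joint pools.

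Of 15168 autosomal genes tested with edgeR's quasi-likelihood test, 792 (5.22%) differed by more than 2-fold at a Benjamini-Hochberg adjusted p below 0.05, and these are termed called. Higher in the joint pools were 618 (4.07% of the genes tested) and higher in the skin pools 174 (1.15%). Without the fold threshold, 1284 genes (8.47%) passed the test as higher in the joint pools and 742 (4.89%) as higher in the skin pools. These shares of all genes tested are the background for every count of list members called or passed below. The 2 directions differed in size: the median log2 fold change was 2.06 over the genes called higher in the joint pools and -1.26 over those called higher in the skin pools, against 0.00213 over all genes tested. A log2 fold change above 2 was reached by 323 of the former, and one below -2 by 13 of the latter. Of the 618, 202 would not have met the filter on low counts on the skin pools alone and entered the test through their level in the joint pools. Among the 14250 genes whose skin pools met it, 416 were called higher in the joint pools and 174 in the skin pools. How many of the 174 entered through the skin pools alone was not counted. The 3 joint values lay outside the 3 skin values for 617 of the 618 genes and for 174 of the 174. The genes were called on these same values, so that this separation follows largely from the calls and is no further evidence. Scaling by library totals alone gave 579 and 222, with the median of all genes at -0.055.

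**Figure D1:**
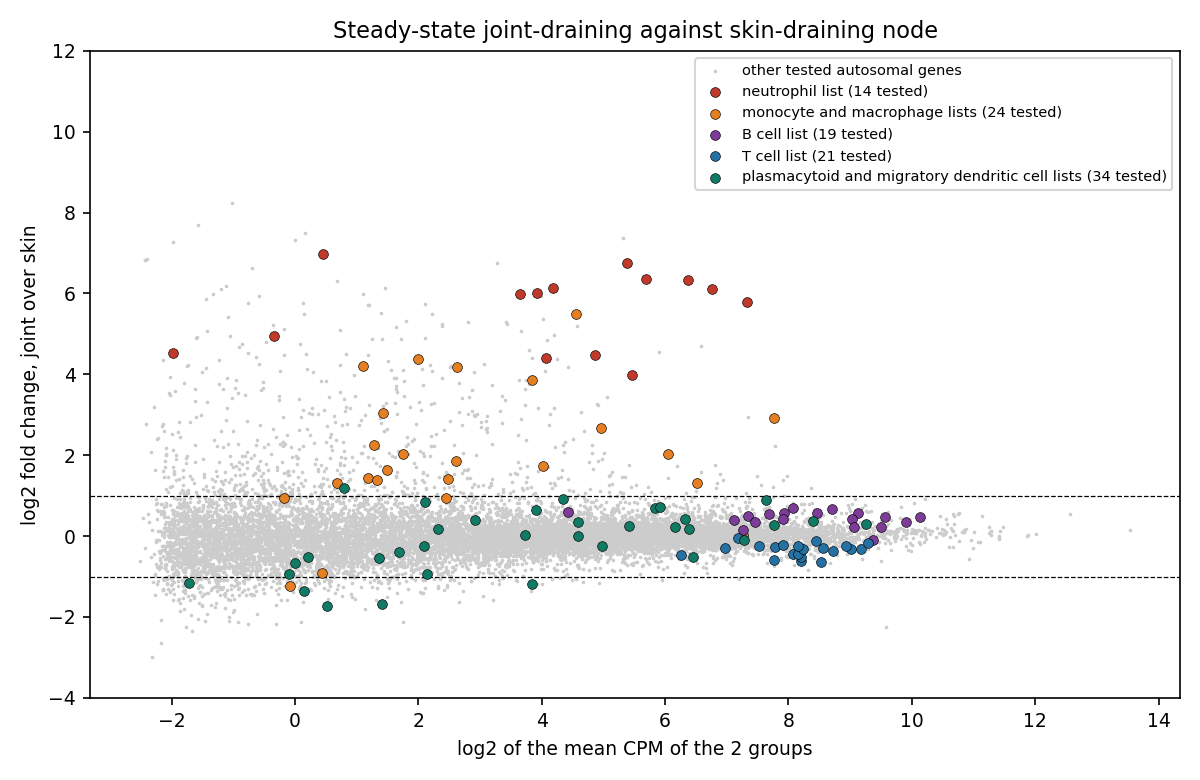
Log2 fold change between the joint and skin pools (vertical axis; positive is higher in the joint pools) against mean expression in log2 CPM (horizontal axis) for the 15168 autosomal genes tested. Colours mark members of the neutrophil, monocyte and macrophage, B cell, T cell, and plasmacytoid and migratory dendritic cell lists, and dashed lines mark 2-fold. Neutrophil genes (red) lie at 3.99 or above, while B and T cell genes lie between the dashed lines.

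Many of the largest differences lay in genes of innate cells. Of 51 tested members of the lists for neutrophils, monocytes, tissue macrophages, mast cells and basophils, and eosinophils, 40 were called higher in the joint pools and 0 higher in the skin pools, against 4.07% and 1.15% of all genes tested. A further 11 of the 62 autosomal members were below the filter on low counts. Of the 51, 10 would not have met that filter on the skin pools alone, so that they entered the test through their level in the joint pools and their calls are in part fixed by it. The other 41 included 31 called higher in the joint pools, against 2.92% of the 14250 genes tested whose skin pools met the filter. In bulk samples, fewer cells of a type and less RNA per cell cannot be told apart. The share of each cell type among the sorted cells was not measured here.

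Neutrophils are short-lived granulocytes that fill their granules, in the bone marrow, with antimicrobial proteins and proteases. The 14 genes of the neutrophil list were all called higher in the joint pools. Of these, 4 (Camp, Elane, Ly6g and Mpo) would not have met the filter on the skin pools alone. Over the other 10, the log2 fold changes ran from 3.99 to 6.76 with a median of 6.06. The summed level of all 14 genes was 775, 1228 and 1428 CPM in the joint pools and 29.3, 22.2 and 18.7 CPM in the skin pools. S100a9, a subunit of calprotectin, the calcium-binding protein that fills neutrophil cytoplasm, stood at 198, 323 and 425 CPM in the joint pools and 7.06, 5.76 and 4.27 CPM in the skin pools (log2 fold change 5.78 ± 0.30 (SE), adjusted p = 1.77e-06). Its partner S100a8 stood at 142, 228 and 272 CPM in the joint pools and 3.95, 3.05 and 2.18 CPM in the skin pools (log2 fold change 6.11 ± 0.29 (SE), adjusted p = 1.16e-06). The lowest joint pool was above the highest skin pool by more than an order of magnitude for both.

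Genes of the secondary granules moved with them. Ltf, encoding the iron-binding lactoferrin (chr9:111019271-111042767, plus strand), stood at 76.3, 109 and 122 CPM in the joint pools and 1.6, 0.897 and 1.23 CPM in the skin pools (log2 fold change 6.36 ± 0.24 (SE), adjusted p = 7.04e-07). Ngp, the neutrophilic granule protein (chr9:110419747-110423012, plus strand), stood at 119, 172 and 199.8 CPM in the joint pools and 3.16, 1.43 and 1.43 CPM in the skin pools (log2 fold change 6.32 ± 0.32 (SE), adjusted p = 1.48e-06). Lcn2, the siderophore-binding lipocalin (chr2:32384633-32388252, minus strand), stood at 58.6, 85.7 and 103 CPM in the joint pools and 1.04, 0.666 and 0.512 CPM in the skin pools (log2 fold change 6.76 ± 0.28 (SE), adjusted p = 7.04e-07). Camp, the precursor of the cathelicidin peptide (chr9:109847379-109849617, minus strand), stood at 20.9, 23.5 and 29.8 CPM in the joint pools and 0.173, 0.461 and 0.58 CPM in the skin pools (log2 fold change 5.98 ± 0.29 (SE), adjusted p = 1.16e-06). Ltf, Ngp and Camp lie within 2 megabases of each other on chromosome 9. Primary granule genes, which are made in marrow precursors, had few counts in the skin pools: Mpo, myeloperoxidase, stood at 1.77, 1.68 and 1.15 CPM in the joint pools with 3, 0 and 2 counts in the skin pools, and Elane, neutrophil elastase, at 0.762, 0.324 and 0.392 CPM with 2, 0 and 0 counts. Ly6g, the surface marker of mature neutrophils, stood at 1.52, 2.59 and 4.09 CPM in the joint pools with 1, 0 and 1 counts in the skin pools. The fitted fold changes of these 3 genes depend on the prior count of the model and are not given.

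The 250 bases before the transcription start that RefSeq gives for 4 of these genes are shown because the genes moved together and to a like extent. They were taken from the RefSeq annotation of GRCm38.p6, written 5′ to 3′ on the strand of the gene. RefSeq starts differ from the gene bounds given above. The Lcn2 window lies wholly within those bounds, and the windows of Ltf, Ngp and Camp lie partly within them. Capitals mark matches to TTNNGNAA, a core pattern bound by C/EBP factors, or to GAGGAA, a core pattern bound by PU.1, each also in its reverse complement (TTNCNNAA and TTCCTC). Both factors are known regulators of granulocyte genes.
Ltf (chr9:111019042-111019291, plus strand): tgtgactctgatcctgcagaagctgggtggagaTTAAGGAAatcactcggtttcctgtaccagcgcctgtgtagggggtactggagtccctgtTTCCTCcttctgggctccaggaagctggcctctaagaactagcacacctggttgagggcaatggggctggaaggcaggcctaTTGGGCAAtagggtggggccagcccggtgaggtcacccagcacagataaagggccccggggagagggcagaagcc
Ngp (chr9:110419558-110419807, plus strand): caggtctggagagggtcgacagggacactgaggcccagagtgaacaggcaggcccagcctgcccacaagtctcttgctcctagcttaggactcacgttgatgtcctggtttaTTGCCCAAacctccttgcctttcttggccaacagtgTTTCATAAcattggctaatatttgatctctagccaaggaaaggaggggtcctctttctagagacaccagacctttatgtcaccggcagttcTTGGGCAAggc
Lcn2 (chr2:32387740-32387989, minus strand): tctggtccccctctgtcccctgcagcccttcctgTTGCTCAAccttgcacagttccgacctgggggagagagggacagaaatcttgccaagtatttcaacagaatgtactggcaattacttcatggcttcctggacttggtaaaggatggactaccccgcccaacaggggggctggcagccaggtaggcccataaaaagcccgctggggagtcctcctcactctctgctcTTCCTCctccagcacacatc
Camp (chr9:109849457-109849706, minus strand): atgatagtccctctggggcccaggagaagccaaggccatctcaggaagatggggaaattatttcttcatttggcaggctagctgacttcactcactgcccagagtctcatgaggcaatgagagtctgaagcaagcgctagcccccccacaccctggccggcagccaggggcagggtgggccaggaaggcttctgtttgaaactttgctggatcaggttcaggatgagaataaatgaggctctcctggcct
Ltf held 2 matches to the C/EBP-type pattern and 1 to the PU.1-type pattern, Ngp held 3 and 0, Lcn2 held 1 and 1, and Camp held neither. Of the 14 neutrophil genes 13 had a promoter sequence, of which 8 held the C/EBP-type pattern and 9 the PU.1-type pattern, against 36.8% and 23.3% of 32851 promoter windows. A gene was counted if any of its windows matched, while the background counts single windows, so that the shares are not on a like basis. A match is a description of letters and not a measured binding site.

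The surface and secreted genes of the list behaved alike. Cxcr2, the receptor by which neutrophils follow ELR+ chemokines, stood at 22.4, 38.8 and 35.6 CPM in the joint pools and 1.65, 1.41 and 1.47 CPM in the skin pools (log2 fold change 4.41 ± 0.23 (SE), adjusted p = 1.49e-06). Csf3r, the receptor for G-CSF, stood at 60.8, 105 and 82.5 CPM in the joint pools and 6.15, 5.69 and 3.65 CPM in the skin pools (log2 fold change 3.99 ± 0.24 (SE), adjusted p = 3.71e-06). Mmp8 and Mmp9, a collagenase and a gelatinase stored in granules, differed by 6.02 ± 0.23 and 4.47 ± 0.30 (log2 fold change ± SE, adjusted p = 7.04e-07 and 9.11e-06). Retnlg, a resistin-like protein of neutrophils, differed by 6.14 ± 0.48 (adjusted p = 1.99e-05). Joint replicate 1 had the lowest value of the 3 joint pools in 12 of the 14 genes, the exceptions being Elane and Mpo. All 14 remained called with any of the 6 pools left out.

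**Figure D2:**
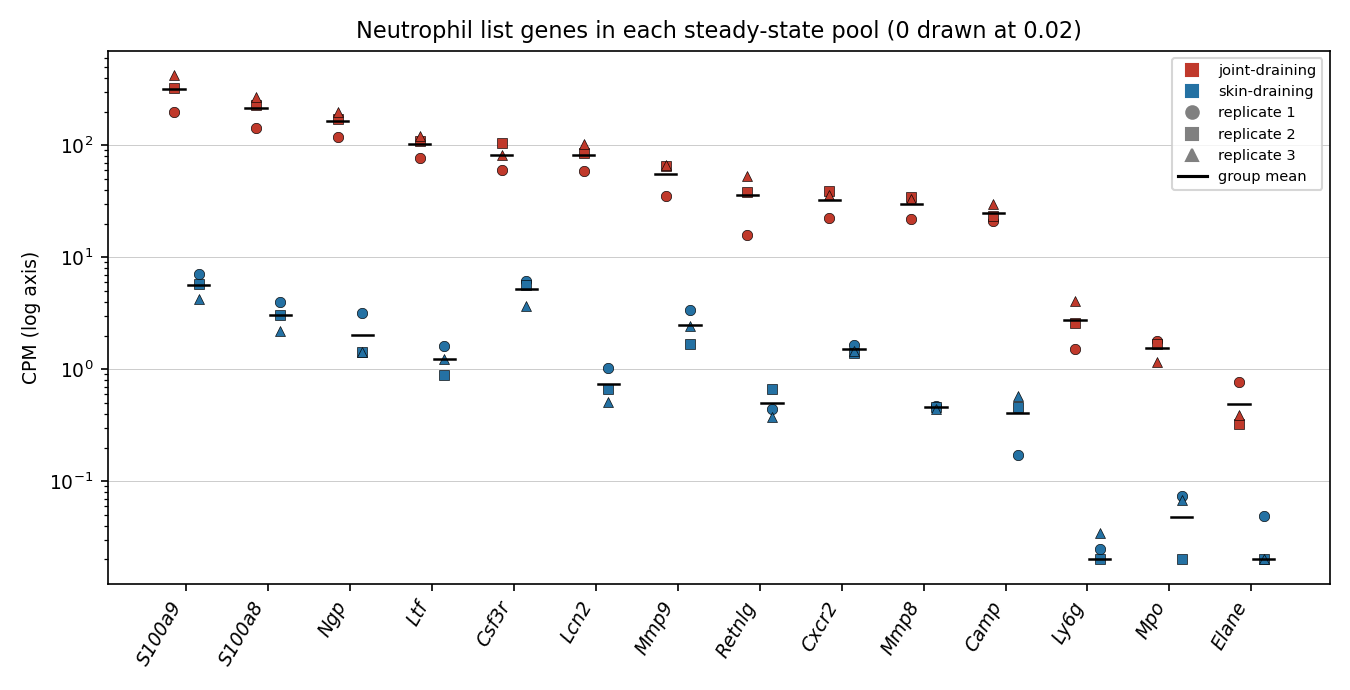
Expression in CPM (log axis) of the 14 neutrophil genes in each of the 3 joint (red) and 3 skin (blue) pools. Points are pools, bars are group means and a count of 0 is drawn at 0.02. For every gene the 3 joint values sit above the 3 skin values.

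Among the 10 autosomal genes with the smallest adjusted p higher in the joint pools, 3 were neutrophil genes already given (Mmp8, Ltf and Lcn2). The other 7 follow. Clec4e, encoding Mincle, a receptor for mycobacterial cord factor on macrophages, stood at 17.8, 23.8 and 20.9 CPM in the joint pools and 0.42, 0.589 and 0.58 CPM in the skin pools (log2 fold change 5.3 ± 0.19 (SE), adjusted p = 7.04e-07). Thbs1, encoding thrombospondin 1, a matrix glycoprotein made by platelets and monocytes, had the largest fold change among genes with a mean of at least 10 CPM and stood at 60.3, 107 and 69.2 CPM in the joint pools and 0.518, 0.615 and 0.239 CPM in the skin pools (log2 fold change 7.37 ± 0.31 (SE), adjusted p = 7.04e-07). It overlaps the opposite-strand gene Gm29233, and the strand setting of the counting was not given in the sources used here.
Ifitm1, an interferon-inducible membrane protein, stood at 23.6, 33.3 and 38.1 CPM in the joint pools and 0.765, 0.871 and 0.614 CPM in the skin pools (log2 fold change 5.38 ± 0.23 (SE), adjusted p = 7.04e-07). Alox5ap, which presents arachidonic acid to the lipoxygenase that starts leukotriene synthesis, stood at 31.2, 27.4 and 32.2 CPM in the joint pools and 4.76, 4.48 and 4.27 CPM in the skin pools (log2 fold change 2.75 ± 0.12 (SE), adjusted p = 7.04e-07), and it too overlaps a gene on the other strand, Gm19719. Tnfaip2, a TNF-induced gene, differed by 3.77 ± 0.16, Gda, guanine deaminase, by 4.37 ± 0.18 and Mtus1, a microtubule-associated protein whose gene overlaps 2 opposite-strand genes, by 4.9 ± 0.21 (adjusted p = 7.04e-07, 7.04e-07 and 7.31e-07). Lrg1, a secreted leucine-rich glycoprotein of neutrophil granules, stood at 13.4, 21.6 and 22.3 CPM in the joint pools and 0.173, 0.231 and 0.102 CPM in the skin pools (log2 fold change 6.75 ± 0.31 (SE), adjusted p = 8.94e-07). Lrg1 had 7, 9 and 3 counts in the skin pools, so that the size of its fold change rests on few counts.

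Monocytes are the blood precursors of many tissue macrophages. Of the 10 monocyte genes, 8 were called and 9 passed the test as higher in the joint pools, and 0 passed as higher in the skin pools. Of the 8, Fcgr4 would not have met the filter on the skin pools alone. The median log2 fold change was 2.15 over the list and 2.03 over the 9 genes whose skin pools met the filter. The summed level of the list was 1010.2, 773 and 835 CPM in the joint pools and 298, 317 and 260.0 CPM in the skin pools. Lyz2, the lysozyme of myeloid cells, stood at 479.7, 330.4 and 340.3 CPM in the joint pools and 48.2, 64.2 and 39.7 CPM in the skin pools (log2 fold change 2.92 ± 0.20 (SE), adjusted p = 1.00e-05). Chil3, a chitinase-like protein of monocytes and alternatively activated macrophages, stood at 46.6, 45.7 and 46.6 CPM in the joint pools and 0.963, 1.67 and 0.341 CPM in the skin pools (log2 fold change 5.49 ± 0.31 (SE), adjusted p = 2.37e-06). F13a1, the transglutaminase subunit of factor XIII, stood at 41.5, 22.1 and 17.4 CPM in the joint pools and 1.38, 2.77 and 1.4 CPM in the skin pools (log2 fold change 3.85 ± 0.37 (SE), adjusted p = 8.95e-05). Ccr2, the receptor that draws classical monocytes out of marrow, stood at 141, 95.8 and 81.9 CPM in the joint pools and 21.6, 27.7 and 29 CPM in the skin pools (log2 fold change 2.03 ± 0.20 (SE), adjusted p = 9.64e-05), and Fcgr4, an activating IgG receptor, differed by 4.2 ± 0.29 (adjusted p = 9.81e-06). Ly6c2, the gene of the Ly6C surface marker, which memory T cells and plasma cells also carry, did not pass, at 165, 129.5 and 172 CPM in the joint pools and 159, 158 and 139 CPM in the skin pools (log2 fold change 0.04 ± 0.12 (SE), adjusted p = 0.885). The near-identical Ly6c1 may share reads with it, so the value of either is uncertain.

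Of the 17 autosomal macrophage genes 3 were below the filter, 9 were called higher in the joint pools and 0 were called higher in the skin pools, with a median log2 fold change of 1.69. Csf1r, the receptor for the growth factor on which macrophages depend, stood at 63.9, 54.3 and 43.7 CPM in the joint pools and 9.38, 10.1 and 6.01 CPM in the skin pools (log2 fold change 2.66 ± 0.20 (SE), adjusted p = 1.59e-05). Fcgr1, the high-affinity IgG receptor, stood at 10.1, 7.0 and 5.75 CPM in the joint pools and 0.346, 0.461 and 0.273 CPM in the skin pools (log2 fold change 4.37 ± 0.30 (SE), adjusted p = 9.11e-06). Adgre1, encoding F4/80, and Cd68, the lysosomal macrosialin, differed by 1.87 ± 0.22 and 1.73 ± 0.13 (adjusted p = 0.000425 and 1.85e-05). With single pools left out the number called lay between 6, without skin replicate 3, and 11. Pulling the other way without passing the test were Cd163, a haemoglobin scavenger receptor, at 1.21, 0.703 and 0.906 CPM in the joint pools and 1.73, 2.05 and 1.5 CPM in the skin pools (log2 fold change -0.91 ± 0.27 (SE), adjusted p = 0.0501), and Timd4, a receptor for phosphatidylserine on dying cells, at 0.787, 0.54 and 0.367 CPM in the joint pools and 1.21, 1.87 and 0.888 CPM in the skin pools (log2 fold change -1.23 ± 0.37 (SE), adjusted p = 0.0525). Cd163 was called without joint replicate 1 (-1.14, adjusted p = 0.0307). Timd4 was called as higher in the skin pools without that pool (-1.56, adjusted p = 0.0336) and also by DESeq2 (adjusted p = 0.0336), with scaling by library totals (0.0497), with no filter (0.00268), with at least 10 counts in every pool of a group (0.0486) and in fits on autosomal (0.0467) or protein-coding genes alone (0.0417), while without 1 of the other pools it reached up to 0.245.

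The joint pools were not uniform in these genes. Mrc1, the mannose receptor of tissue macrophages, stood at 8.9, 3.65 and 1.79 CPM in the joint pools and 0.395, 0.717 and 0.649 CPM in the skin pools (log2 fold change 3.03 ± 0.55 (SE), adjusted p = 0.00554), and C1qb, a chain of the complement component C1q, at 9.52, 4.03 and 2.67 CPM in the joint pools and 1.21, 1.77 and 0.956 CPM in the skin pools (log2 fold change 2.03 ± 0.44 (SE), adjusted p = 0.0139). The latter was 1.33 without joint replicate 1 and was not called without skin replicate 3 (1.85, adjusted p = 0.0667). Marco, a scavenger receptor of sinus macrophages, stood at 4.77, 1.0 and 1.15 CPM in the joint pools and 0.938, 0.999 and 0.819 CPM in the skin pools and did not pass (adjusted p = 0.15). The summed level of the macrophage list was 175, 130 and 99.8 CPM in joint replicates 1, 2 and 3 and 31.3, 34.4 and 25.3 CPM in the skin pools. Joint replicate 1 was thus the highest in macrophage genes and the lowest in neutrophil genes, and all 3 joint pools were above all 3 skin pools in both sums.

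The list of complement and clearance genes shares C1qa, C1qb, C1qc, Mertk and Timd4 with the macrophage list, so that their counts overlap. Which cells its transcripts came from was not tested. Of 17 autosomal members 8 were called higher in the joint pools, 0 passed as higher in the skin pools and 2 were below the filter, and 2 of the 8 would not have met it on the skin pools alone. C5ar1 and C3ar1, the receptors for the anaphylatoxins C5a and C3a, stood at 9.27, 15.4 and 16.2 CPM and 2.29, 1.65 and 0.857 CPM in the joint pools and at 0.271, 0.359 and 0.41 CPM and 0.123, 0.102 and 0.0341 CPM in the skin pools. Their log2 fold changes were 5.3 ± 0.29 and 4.08 ± 0.52 (adjusted p = 2.09e-06 and 0.000615). C3ar1 would not have met the filter on the skin pools alone, and its skin values were near or below the level of 3 counts. The size of its fold change thus rests on few counts. C3, the central component, stood at 35.2, 33.7 and 24.6 CPM in the joint pools and 4.07, 4.07 and 3.31 CPM in the skin pools (log2 fold change 3.02 ± 0.17 (SE), adjusted p = 2.09e-06).

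Basophils, mast cells and eosinophils are rarer granulocytes of type 2 responses. Of the 13 mast cell and basophil genes 6 were called higher in the joint pools, 0 passed as higher in the skin pools and 4 were below the filter, among them the mast cell tryptases Tpsb2 and Tpsab1. Of the 6, 3 would not have met the filter on the skin pools alone. Hdc, which makes histamine, stood at 19.7, 41.2 and 33.1 CPM in the joint pools and 2.67, 1.49 and 1.3 CPM in the skin pools (log2 fold change 4.08 ± 0.32 (SE), adjusted p = 2.16e-05). Mcpt8, a protease of basophils, stood at 0.91, 1.19 and 1.4 CPM in the joint pools with 1, 1 and 0 counts in the skin pools, and Prss34, another basophil protease, at 0.959, 1.38 and 2.2 CPM with 0, 0 and 4 counts. Of the 8 eosinophil genes 3 were called higher in the joint pools, 4, including the granule genes Epx and Prg2, were below the filter, and Il5ra passed as lower (log2 fold change -0.59 ± 0.11 (SE), adjusted p = 0.00577). Siglecf, a lectin of eosinophils and some macrophages, stood at 0.639, 1.46 and 1.13 CPM in the joint pools and 0.173, 0.256 and 0.239 CPM in the skin pools (log2 fold change 2.26 ± 0.40 (SE), adjusted p = 0.00457). It too would not have met the filter on the skin pools alone.

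Chemokines and their receptors guide cells into, through and out of nodes. Of 22 receptor genes 7 were called higher in the joint pools and 12 passed the test in that direction, against 1 in the other. Ccr1, a receptor for inflammatory chemokines on myeloid cells, stood at 18.4, 17.8 and 15.2 CPM in the joint pools and 1.63, 1.23 and 0.956 CPM in the skin pools (log2 fold change 3.73 ± 0.19 (SE), adjusted p = 1.49e-06), and Ccrl2, a receptor that presents chemerin, at 5.78, 10.3 and 10.4 CPM in the joint pools and 3.28, 3.33 and 2.53 CPM in the skin pools (log2 fold change 1.53 ± 0.24 (SE), adjusted p = 0.00219). Among the receptors not called, Ccr9, a gut-homing receptor, was lower, at -0.64 ± 0.11 (adjusted p = 0.0039), and Ccr7, which takes T cells and dendritic cells into nodes, stood at 502, 672 and 843 CPM in the joint pools and 621, 508 and 510.2 CPM in the skin pools (log2 fold change 0.3 ± 0.18 (SE), adjusted p = 0.319).

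Of 34 chemokine ligand genes 18 were below the filter, 7 were called higher in the joint pools, 2 of which would not have met the filter on the skin pools alone, and 1 was called higher in the skin pools, or 2 without joint replicate 1. Cxcl2, a ligand of Cxcr2, stood at 20.6, 40.2 and 37.3 CPM in the joint pools and 1.33, 1.28 and 0.717 CPM in the skin pools (log2 fold change 4.85 ± 0.30 (SE), adjusted p = 4.76e-06). Ccl6 and Ccl9, made by myeloid cells, differed by 2.89 ± 0.19 and 2.98 ± 0.27 (adjusted p = 6.42e-06 and 5.52e-05). Ccl2, the ligand of Ccr2, stood at 2.95, 1.41 and 1.62 CPM in the joint pools with 0, 1 and 0 counts in the skin pools. Ccl3, a ligand of Ccr1, stood at 7.01, 8.67 and 9.08 CPM in the joint pools and 3.16, 3.48 and 1.78 CPM in the skin pools (log2 fold change 1.54 ± 0.23 (SE), adjusted p = 0.00186). The ligand called higher in the skin pools was Ccl22, given with the dendritic cell genes.

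Of 29 cytokine genes 4 were below the filter, 9 were called higher in the joint pools and 0 higher in the skin pools. Of the 9, 6 would not have met the filter on the skin pools alone, and without skin replicate 2 the 9 became 5. Il1b, the product of inflammasome-bearing myeloid cells, stood at 124, 210.4 and 221 CPM in the joint pools and 9.33, 7.07 and 4.78 CPM in the skin pools (log2 fold change 4.7 ± 0.28 (SE), adjusted p = 4.10e-06), and overlaps the opposite-strand transcript Il1bos. Csf1, the ligand of Csf1r, differed by 1.69 ± 0.14 (adjusted p = 2.99e-05). Il17a, the effector cytokine of Th17 and γδ T cells, stood at 1.33, 2.49 and 2.47 CPM in the joint pools and 0.469, 0.154 and 0.102 CPM in the skin pools (log2 fold change 3.04 ± 0.47 (SE), adjusted p = 0.00214). Il6 and Il22 were detected mainly in the joint pools, at 0.713, 0.865 and 0.857 CPM and 0.762, 0.54 and 0.514 CPM, with 1, 2 and 1 and with 3, 1 and 1 counts in the skin pools.

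Matrix proteases cleave the collagen and proteoglycan through which cells migrate. Of 14 genes 6 were called higher in the joint pools, 1 of which would not have met the filter on the skin pools alone, and 4 were below the filter. Mmp19 stood at 3.66, 1.92 and 1.35 CPM in the joint pools and 0.222, 0.0769 and 0.102 CPM in the skin pools (log2 fold change 4.04 ± 0.51 (SE), adjusted p = 0.000619), and Mmp14, a membrane-bound activator of other proteases, differed by 1.23 ± 0.20 (adjusted p = 0.00295). Mmp19 was the gene that would not have met the filter, with skin replicates 2 and 3 at the level of 3 counts. The size of its fold change thus rests on few counts. Among genes of adhesion and egress, 2 of 23 were called higher in the joint pools, against 4.07% of all genes tested, and 1 was below the filter. Of the 2, F11r would not have met the filter on the skin pools alone. F11r, encoding junctional adhesion molecule A, stood at 3.71, 3.27 and 2.57 CPM in the joint pools and 0.321, 0.384 and 0.171 CPM in the skin pools (log2 fold change 3.4 ± 0.31 (SE), adjusted p = 5.76e-05), and S1pr3, a receptor for sphingosine 1-phosphate, differed by 1.2 ± 0.19 (adjusted p = 0.00236). The gene through which lymphocytes leave a node showed little difference: S1pr1, the egress receptor, stood at 639, 790.1 and 845 CPM in the joint pools and 692, 724 and 822 CPM in the skin pools (log2 fold change 0.02 ± 0.13 (SE), adjusted p = 0.936).

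**Figure D3:**
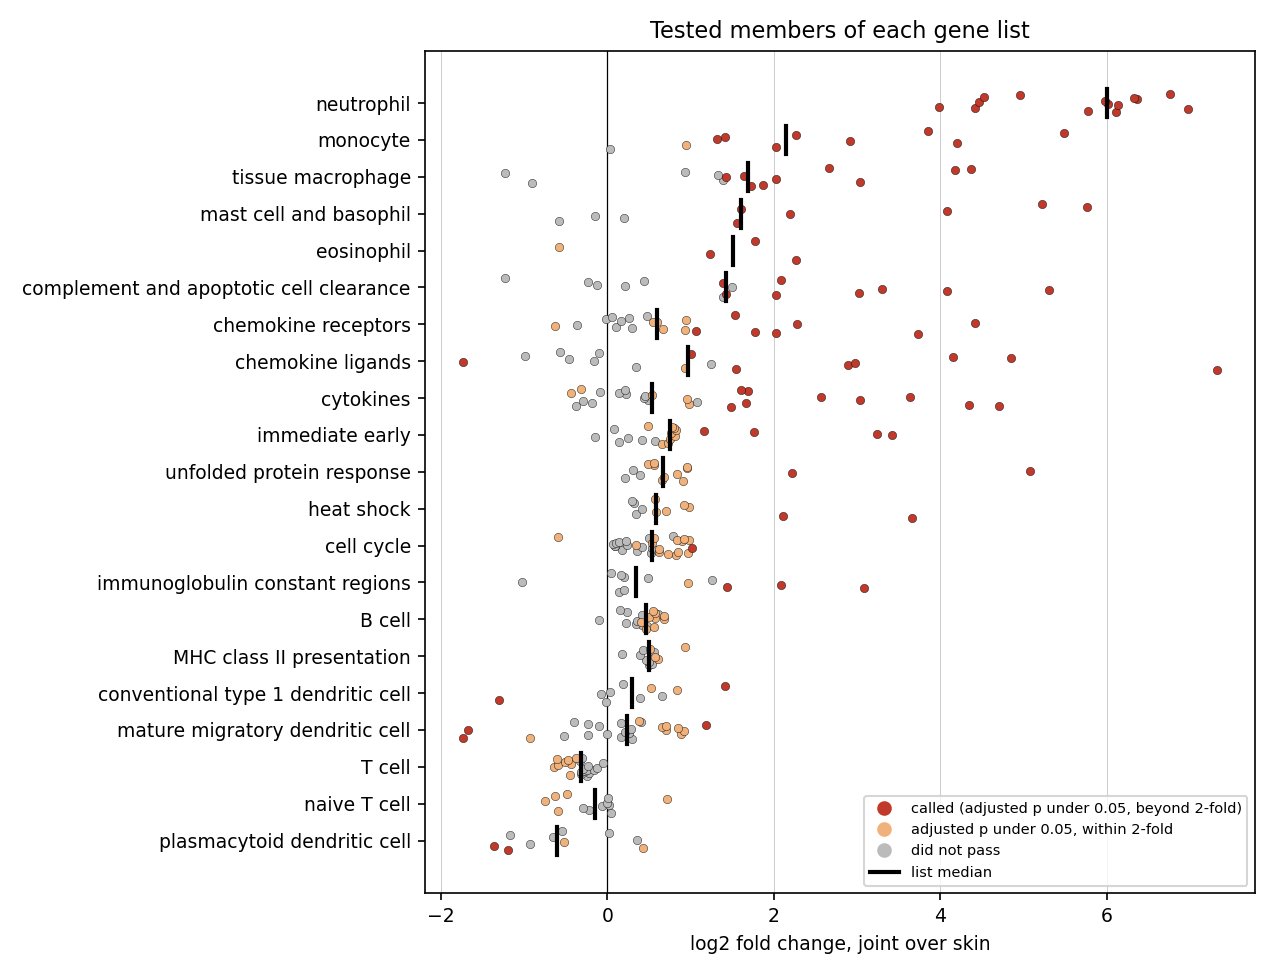
Log2 fold change between joint and skin pools for the tested members of the gene lists, with 1 row a list; points are genes, coloured by whether they were called (red), passed within 2-fold (orange) or did not pass (grey), and the bar is the list median. Neutrophil genes lie furthest to the side of the joint pools, the lowest at 3.99, while T cell and plasmacytoid dendritic cell genes have medians of -0.32 and -0.60.

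B and T cell genes, abundant in all 6 pools, moved by small amounts in opposite directions. Of the 19 B cell genes 9 passed the test as higher in the joint pools, 0 as higher in the skin pools and 0 were called, with a median log2 fold change of 0.47 (8.47% and 4.89% of all genes passed in these directions). Cr2, the complement receptor of B cells and follicular dendritic cells, stood at 561, 536 and 446 CPM in the joint pools and 309, 332 and 323 CPM in the skin pools (log2 fold change 0.68 ± 0.11 (SE), adjusted p = 0.00329), and Ms4a1, encoding CD20, at 728, 641 and 640.3 CPM in the joint pools and 406, 491 and 462 CPM in the skin pools (log2 fold change 0.56 ± 0.11 (SE), adjusted p = 0.00932). Of the 21 T cell genes 8 passed as higher in the skin pools and 0 as higher in the joint pools, with a median of -0.32 and 0 called. Cd4 stood at 215, 246 and 244 CPM in the joint pools and 357, 355 and 361 CPM in the skin pools (log2 fold change -0.61 ± 0.10 (SE), adjusted p = 0.00248), and Cd5, a brake on T cell receptor signalling, at 165, 169 and 186 CPM in the joint pools and 272, 262 and 254 CPM in the skin pools (log2 fold change -0.6 ± 0.09 (SE), adjusted p = 0.0021). Both counts depended on single pools: with 1 pool left out the B cell genes that passed numbered 4 to 12 and the T cell genes 3 to 19, the lowest of each without skin replicate 2.
Variable segments followed the same pattern: of 218 immunoglobulin segments 27 passed as higher in the joint pools and 0 as higher in the skin pools, and of 144 T cell receptor segments 9 passed as higher in the skin pools and 0 as higher in the joint pools, with 33 and 52 below the filter. Reads of near-identical segments may be split between them, so single segments are not named.

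Class switching replaces the IgM and IgD constant region of an antibody with that of IgG, IgA or IgE, and marks B cells that have met antigen with T cell help. Of the 12 constant region genes 3 were called and 4 passed as higher in the joint pools, and 0 passed as higher in the skin pools. Ighg1 stood at 54.9, 40.3 and 37.8 CPM in the joint pools and 7.31, 3.79 and 4.61 CPM in the skin pools (log2 fold change 3.08 ± 0.24 (SE), adjusted p = 1.87e-05), Ighg2c at 44.3, 27 and 28.7 CPM in the joint pools and 7.87, 6.2 and 9.66 CPM in the skin pools (log2 fold change 2.08 ± 0.21 (SE), adjusted p = 0.000149) and Ighg2b at 35.7, 23.6 and 25.4 CPM in the joint pools and 13.1, 5.92 and 12.3 CPM in the skin pools (log2 fold change 1.44 ± 0.27 (SE), adjusted p = 0.00593). Ighg3 was higher by 0.97 ± 0.23 (adjusted p = 0.0207), which missed the threshold, at up to 0.0888, without joint replicate 2 or 3 or skin replicate 1 or 2. All 3 joint pools exceeded all 3 skin pools for these genes, though Ighg2b and Ighg2c are near-identical and may share reads. The unswitched Ighm stood at 2605, 2442 and 2741 CPM in the joint pools and 2738, 2352 and 2003 CPM in the skin pools (log2 fold change 0.13 ± 0.14 (SE), adjusted p = 0.596) and Ighd at 1601, 1733 and 1770.4 CPM in the joint pools and 1774, 1479 and 1209.7 CPM in the skin pools (log2 fold change 0.19 ± 0.15 (SE), adjusted p = 0.452), neither of which passed. Igha, the constant region of mucosal antibody, stood at 3.64, 3.19 and 4.46 CPM in the joint pools and 5.55, 4.82 and 12.9 CPM in the skin pools and did not pass (log2 fold change -1.03 ± 0.34 (SE), adjusted p = 0.0742). It was called as higher in the skin pools by DESeq2 (-1.04, adjusted p = 0.00965), with no filter on low counts (adjusted p = 9.15e-06) and without skin replicate 2 (-1.29, adjusted p = 0.0355), and stood at -0.47 without skin replicate 3 (adjusted p = 0.209). Without joint replicate 1 the 3 constant region genes called higher in the joint pools became 5.

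**Figure D4:**
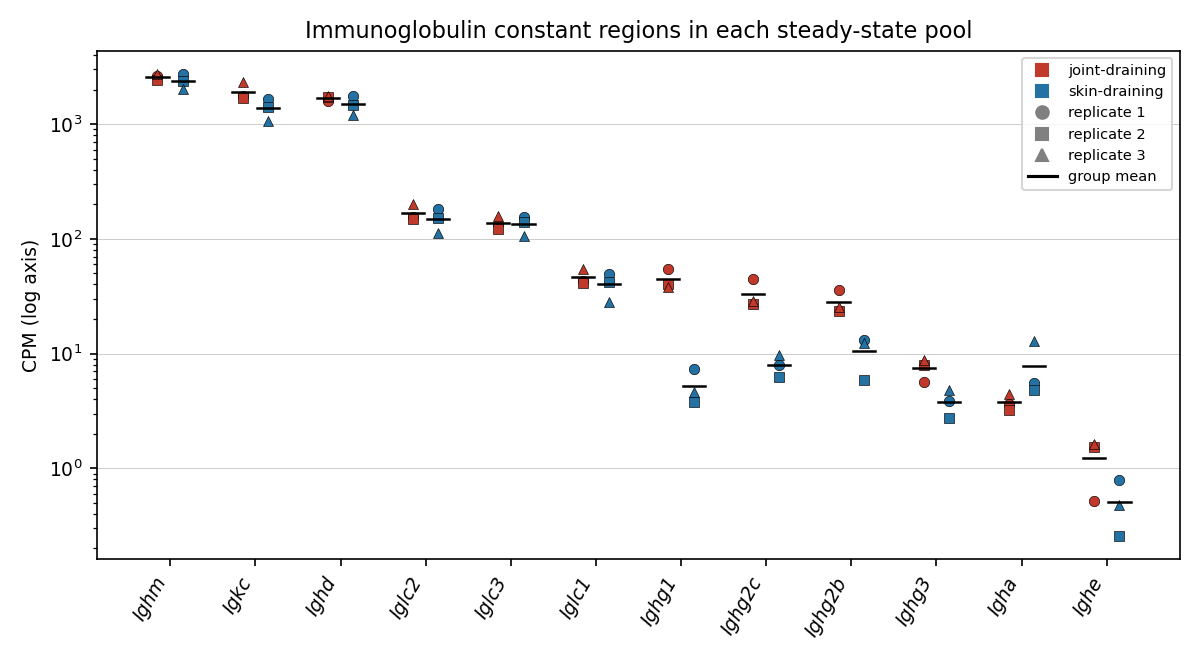
Expression in CPM (log axis) of the 12 immunoglobulin constant region genes in each of the 3 joint (red) and 3 skin (blue) pools, with bars at group means. The Ighg1 values of the joint pools lie between 37.8 and 54.9 CPM and those of the skin pools between 3.79 and 7.31 CPM, while Ighm and Ighd values of the groups lie close together.

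Germinal centres are where such B cells divide and mutate their receptors. Of 10 genes of germinal centres 2 were called higher in the joint pools, against 4.07% of all genes tested. The 2 became 1 without joint replicate 2 or skin replicate 2. Gcsam, a germinal centre signalling protein, stood at 2.78, 2.95 and 2.28 CPM in the joint pools and 1.48, 0.794 and 1.33 CPM in the skin pools (log2 fold change 1.15 ± 0.26 (SE), adjusted p = 0.0171). The call of Gcsam was lost without joint replicate 2 (1.06, adjusted p = 0.0744) and without skin replicate 2 (0.91, adjusted p = 0.0746). The other 8 genes of this list were not called, and Bcl6, the master regulator of the germinal centre, stood at 104, 92.6 and 89.6 CPM in the joint pools and 91.4, 78.9 and 68.2 CPM in the skin pools (log2 fold change 0.26 ± 0.12 (SE), adjusted p = 0.19). Of 13 plasma cell genes 5 passed as higher in the joint pools, with Xbp1 and Prdm1, the factors of antibody-secreting cells, higher by 0.79 ± 0.09 and 0.64 ± 0.11 (adjusted p = 0.000391 and 0.0050). Without skin replicate 2 the 5 became 2. Follicular helper T cells supply the help, and 3 of the 8 genes of that list passed as higher in the joint pools, of which Icos, a costimulatory receptor, stood at 115, 160.0 and 169.5 CPM in the joint pools and 66, 73.5 and 87.8 CPM in the skin pools (log2 fold change 0.97 ± 0.16 (SE), adjusted p = 0.00285). The 3 became 1 without joint replicate 2.

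Among other lymphocytes the picture was mixed. Genes of resting T cells were lower in the joint pools for 4 of 12 members, including Lef1, a factor of naive T cells, at 165, 191 and 206 CPM in the joint pools and 275, 283 and 291 CPM in the skin pools (log2 fold change -0.6 ± 0.10 (SE), adjusted p = 0.00453), while Igfbp4 was higher (log2 fold change 0.71 ± 0.13 (SE), adjusted p = 0.00538). Of the 10 γδ T cell genes 4 passed as higher in the joint pools, among them Il17a, given with the cytokines. Il17a was the 1 called, and it would not have met the filter on the skin pools alone. Gzmb, a granzyme of cytotoxic cells that other activated leukocytes also make, stood at 20.9, 18 and 18.5 CPM in the joint pools and 6.05, 5.89 and 4.06 CPM in the skin pools (log2 fold change 1.83 ± 0.16 (SE), adjusted p = 4.13e-05). It was the called gene among 13 of natural killer and cytotoxic cells, and 2 others passed as lower in the joint pools, a count between 0 and 3 with 1 pool left out. Of 7 genes of type 2 innate lymphoid cells 3 passed as higher in the joint pools, 1 passed as higher in the skin pools and 1 was below the filter. Of the 3, 2 were called, Areg and Il13, and Il13 would not have met the filter on the skin pools alone. Areg, amphiregulin, a product of type 2 innate lymphoid cells and of other cells, stood at 8.14, 10.1 and 12.1 CPM in the joint pools and 4.12, 2.46 and 3.24 CPM in the skin pools (log2 fold change 1.63 ± 0.21 (SE), adjusted p = 0.000821). Of 9 regulatory T cell genes Ctla4 passed as higher (log2 fold change 0.51 ± 0.12 (SE), adjusted p = 0.0161) and Il2ra and Ikzf4 as lower, by -0.47 ± 0.10 and -0.52 ± 0.13 (adjusted p = 0.00984 and 0.0265). None of the 3 passed without skin replicate 2 (adjusted p up to 0.105), and Foxp3, on the X chromosome, was not considered. Of 12 factors of T helper lineages 4 passed as higher in the joint pools and 1 as higher in the skin pools, and the 1 called was Ahr. Ahr, a ligand-activated factor of Th17 and innate lymphoid cells, stood at 15.3, 21.1 and 17.9 CPM in the joint pools and 5.7, 6.81 and 6.25 CPM in the skin pools (log2 fold change 1.53 ± 0.14 (SE), adjusted p = 7.80e-05).

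Dendritic cells are known to travel by lymph from a tissue to its node, maturing as they go. Of 26 genes of the mature migratory state 1 was called higher in the joint pools and 2 higher in the skin pools, with 8 and 3 passing at any fold and a median log2 fold change of 0.24. Without skin replicate 2 the 8 became 5. Ccl22, a chemokine of mature dendritic cells that draws Ccr4-bearing T cells, stood at 0.738, 0.73 and 0.514 CPM in the joint pools and 2.15, 2.43 and 2.01 CPM in the skin pools (log2 fold change -1.73 ± 0.24 (SE), adjusted p = 0.00129). Apol7c, an apolipoprotein L of dendritic cells, stood at 1.28, 1.59 and 0.93 CPM in the joint pools and 4.07, 4.2 and 3.82 CPM in the skin pools (log2 fold change -1.67 ± 0.22 (SE), adjusted p = 0.000913), and Fscn1, the actin-bundling fascin of mature dendritic cells, at 3.03, 3.11 and 3.01 CPM in the joint pools and 6.49, 5.53 and 5.36 CPM in the skin pools (log2 fold change -0.93 ± 0.16 (SE), adjusted p = 0.00359). Cd83, which is also induced on activated B cells, was higher in the joint pools, at 216, 259 and 297 CPM in the joint pools and 168, 123 and 127 CPM in the skin pools (log2 fold change 0.88 ± 0.15 (SE), adjusted p = 0.00389). The migratory list therefore held genes that passed in both directions.

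Conventional dendritic cells are of 2 kinds. Of the 10 genes of the first kind 3 passed as higher in the joint pools, 1 of them called, and 1 was called higher in the skin pools, with a median log2 fold change of 0.29. Naaa, a lysosomal amidase, and Wdfy4, a protein of antigen cross-presentation that B cells also express, were higher in the joint pools by 0.84 ± 0.14 and 0.52 ± 0.13 (adjusted p = 0.00315 and 0.0292), and Ifi205, an interferon-inducible gene, stood at 4.18, 2.22 and 1.74 CPM in the joint pools and 1.26, 1.02 and 0.751 CPM in the skin pools (log2 fold change 1.41 ± 0.35 (SE), adjusted p = 0.0255). With 1 pool left out 1 to 4 of the 10 passed as higher in the joint pools, and the call of Ifi205 was lost without joint replicate 1 or 2 or skin replicate 2 or 3 (adjusted p up to 0.0999). Clec9a, the dead-cell receptor of the first kind, stood at 1.01, 1.05 and 0.71 CPM in the joint pools and 2.3, 2.08 and 2.49 CPM in the skin pools (log2 fold change -1.3 ± 0.24 (SE), adjusted p = 0.00559), and Xcr1, the chemokine receptor of the same cells, at 2.19, 2.16 and 2.52 CPM in the joint pools and 1.88, 2.33 and 2.77 CPM in the skin pools (log2 fold change -0.01 ± 0.21 (SE), adjusted p = 0.979). Of the 10 genes of the second kind 2 were called higher in the joint pools, Itgam and Sirpa, which monocytes and macrophages also express, by 2.79 ± 0.16 and 2.06 ± 0.16 (adjusted p = 3.71e-06 and 1.99e-05). Flt3, the growth factor receptor of both kinds, stood at 6.37, 7.27 and 5.78 CPM in the joint pools and 8.71, 7.79 and 6.76 CPM in the skin pools (log2 fold change -0.26 ± 0.15 (SE), adjusted p = 0.306).

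Plasmacytoid dendritic cells are the main makers of type I interferon and enter nodes from blood. Of 10 genes 2 were called higher in the skin pools, 3 passed in that direction and 1 in the other, with a median log2 fold change of -0.60. The summed level of the list was 217 ± 18.3 CPM in the joint pools and 233 ± 6.42 CPM in the skin pools (SD, n = 3). Tcf4, a factor that B cells also express and the most abundant gene of the list in the joint pools, passed as higher there (log2 fold change 0.43 ± 0.11 (SE), adjusted p = 0.0326), a test passed in 1 of the 6 fits with a pool left out. Siglech, their surface lectin (chr7:55768178-55778925), stood at 10.8, 8.46 and 6.98 CPM in the joint pools and 21, 17.6 and 21.4 CPM in the skin pools (log2 fold change -1.19 ± 0.16 (SE), adjusted p = 0.0010), and Klk1, a kallikrein, at 0.738, 0.513 and 0.612 CPM in the joint pools and 1.8, 1.72 and 1.26 CPM in the skin pools (log2 fold change -1.36 ± 0.27 (SE), adjusted p = 0.00833). Of 25 genes of the type I interferon response 6 passed as higher in the joint pools and 1 as higher in the skin pools, with 0 called. Isg15 stood at 14.9, 14.1 and 17.9 CPM in the joint pools and 7.38, 8.22 and 8.47 CPM in the skin pools (log2 fold change 0.96 ± 0.13 (SE), adjusted p = 0.000969).

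**Figure D5:**
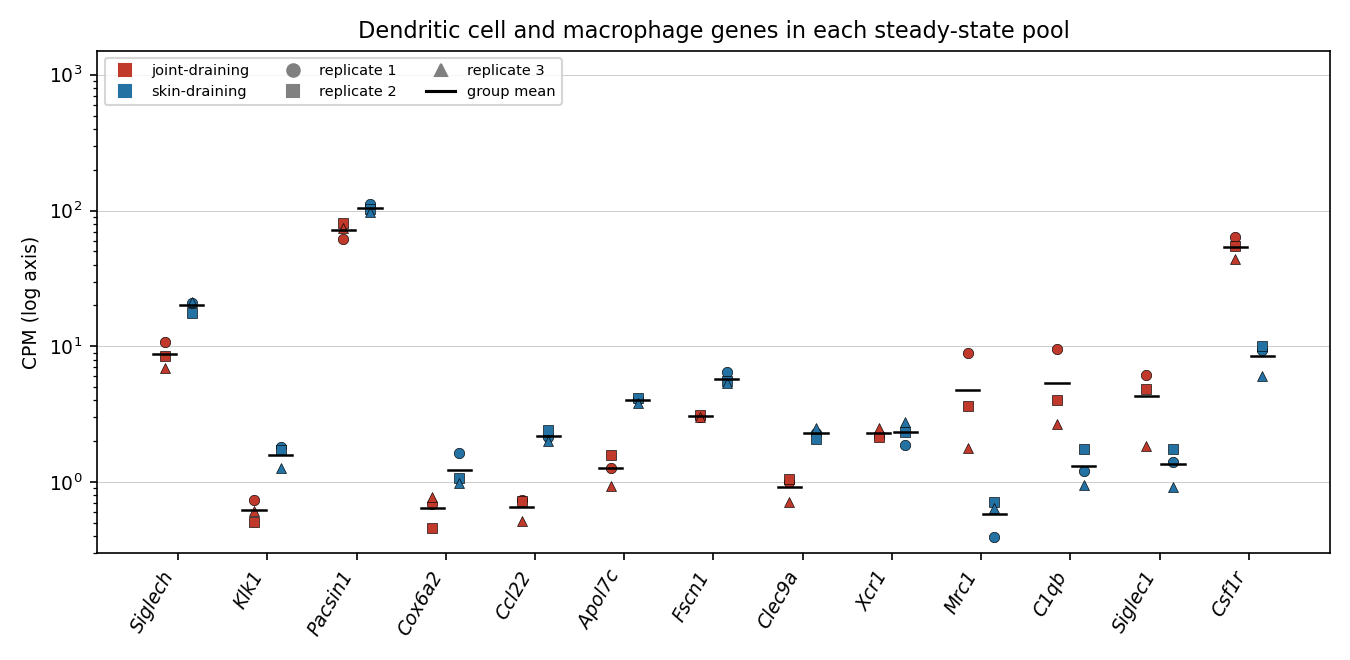
Expression in CPM (log axis) of dendritic cell, plasmacytoid dendritic cell and macrophage genes in each of the 3 joint (red) and 3 skin (blue) pools, with bars at group means. Macrophage genes such as Csf1r are higher in the joint pools, and Ccl22 and Siglech are higher in the skin pools.

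The genes called higher in the skin pools were of another kind. Of the 174, 83 (47.7%) were protein coding, against 587 (95.0%) of the 618 called higher in the joint pools. Long non-coding classes (lincRNA, antisense, processed transcript and genes to be experimentally tested) made up 80 of the 174 (46.0%) and 13.3% of all genes tested, and 3.96% of that class was called higher in the skin pools, against 0.678% of protein-coding genes. The median log2 fold change of the class was -0.29. When only protein-coding genes were fitted, 102 genes were called higher in the skin pools.

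The gene with the smallest adjusted p in this direction was the long non-coding Gm30948 (chr12:115262684-115287908, plus strand, at the immunoglobulin heavy chain locus), at 3.91, 5.22 and 4.8 CPM in the joint pools and 13.9, 13.2 and 14.6 CPM in the skin pools (log2 fold change -1.58 ± 0.14 (SE), adjusted p = 5.04e-05). Slc6a19, a transporter of neutral amino acids, stood at 13.1, 15.3 and 14.5 CPM in the joint pools and 30.4, 30.6 and 30.8 CPM in the skin pools (log2 fold change -1.1 ± 0.10 (SE), adjusted p = 5.77e-05). The 3 values of each group lay close together for it. Adam11, a protease-like protein without catalytic activity, stood at 4.6, 5.0 and 3.6 CPM in the joint pools and 14.6, 11.3 and 10.8 CPM in the skin pools (log2 fold change -1.48 ± 0.17 (SE), adjusted p = 0.000379), and Ntrk3, the receptor for neurotrophin 3, at 13.3, 13.6 and 12 CPM in the joint pools and 22.8, 26.4 and 30.1 CPM in the skin pools (log2 fold change -1.03 ± 0.12 (SE), adjusted p = 0.000435). A630023P12Rik, Mettl27, Lypd6b and A430093F15Rik differed by -1.07 ± 0.10, -1.18 ± 0.12, -1.11 ± 0.13 and -1.03 ± 0.12 (adjusted p = 5.76e-05, 0.000178, 0.000308 and 0.000356). Tmie and Ripor3, which overlap Als2cl and Gm14236 on the other strand, differed by -1.12 ± 0.10 and -1.79 ± 0.21 (adjusted p = 7.36e-05 and 0.000359). Among genes with a mean of at least 10 CPM in the skin pools, BC043934 and Ly6c1 differed by -1.35 ± 0.17 and -1.19 ± 0.16 (adjusted p = 0.000605 and 0.000821), the latter with the uncertainty given for Ly6c2. The fold of A430093F15Rik fell under the threshold without skin replicate 2 (-0.96), and that of Ntrk3 without joint replicate 3 (-0.99) or skin replicate 3 (-0.93).

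Immediate early genes respond within minutes to activation or to handling of a tissue. Of 19 such genes 13 passed as higher in the joint pools, 4 of them called, and 0 as higher in the skin pools, with a median log2 fold change of 0.75. Dusp1, a phosphatase that restrains MAP kinases, stood at 372, 426 and 477 CPM in the joint pools and 282, 222 and 217 CPM in the skin pools (log2 fold change 0.82 ± 0.13 (SE), adjusted p = 0.00309), and Atf3, a stress-induced factor, at 22.1, 25 and 25.2 CPM in the joint pools and 2.86, 2.69 and 2.05 CPM in the skin pools (log2 fold change 3.24 ± 0.15 (SE), adjusted p = 8.94e-07). Nr4a3, a nuclear receptor induced by antigen receptor signals, stood at 18.2, 51.7 and 44.4 CPM in the joint pools and 16.5, 16.5 and 18.3 CPM in the skin pools (log2 fold change 1.16 ± 0.30 (SE), adjusted p = 0.0304). It was the called gene whose groups overlapped, and it was not called when any pool but joint replicate 1 was left out (adjusted p up to 0.138). Of 12 heat shock genes 7 passed as higher in the joint pools, or 4 without skin replicate 1, and 2 were called, Hspa1a and Hspa1b. These near-identical copies, which may share reads, stood at 1.43, 0.73 and 0.71 CPM and 2.58, 2.65 and 3.18 CPM in the joint pools and 0.123, 0.0769 and 0 CPM and 0.518, 0.487 and 0.99 CPM in the skin pools. Hspa1a would not have met the filter on low counts on the skin pools alone. Of 14 genes of the unfolded protein response 11 passed as higher in the joint pools and 2 were called, neither of which would have met the filter on the skin pools alone, with Hspa5, the chaperone BiP, at 632, 674 and 814 CPM in the joint pools and 399.9, 343 and 389 CPM in the skin pools (log2 fold change 0.91 ± 0.13 (SE), adjusted p = 0.00111) and Asns, asparagine synthetase, higher by 2.21 ± 0.33 (adjusted p = 0.00183). With single pools left out, 6 to 13 of the immediate early genes and 7 to 11 of the unfolded protein response genes passed, the lowest of each without skin replicate 2. These genes moved with the same groups as the innate genes, and their part in the other differences was not tested.

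Of 30 cell cycle genes 14 passed as higher in the joint pools, 1 of them called, 1, Ccne1, passed as higher in the skin pools and 15 did not pass, with a median log2 fold change of 0.54. Without skin replicate 2 the 14 became 3. Ccna2, a cyclin of DNA replication and mitosis, stood at 8.81, 6.32 and 7.0 CPM in the joint pools and 3.83, 3.3 and 4.23 CPM in the skin pools (log2 fold change 0.97 ± 0.18 (SE), adjusted p = 0.00539) and Rrm2, which makes the building blocks of DNA, at 15, 11.5 and 13 CPM in the joint pools and 7.45, 5.97 and 7.82 CPM in the skin pools (log2 fold change 0.9 ± 0.15 (SE), adjusted p = 0.00334). Of 22 genes of glycolysis and the hypoxia response 6 passed as higher in the joint pools and 2 were called, Slc16a3, a lactate exporter, by 2.68 ± 0.20 and Vegfa, the vascular growth factor, by 2.06 ± 0.28 (adjusted p = 1.61e-05 and 0.000913). Without skin replicate 2 the 6 became 3. Of 16 clock genes 4 passed as higher and 1 as lower, counts that became 1 and 0 without joint replicate 2, with Bhlhe40, a repressor that activated lymphocytes induce, at 127, 169 and 179 CPM in the joint pools and 89.6, 58 and 60.9 CPM in the skin pools (log2 fold change 1.19 ± 0.18 (SE), adjusted p = 0.00197).

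Other programmes differed less. Of 12 genes of MHC class II presentation 4 passed as higher in the joint pools, led by Ifi30, a lysosomal thiol reductase (log2 fold change 0.93 ± 0.13 (SE), adjusted p = 0.00136), and the median was 0.50. With 1 pool left out 1 to 7 of them passed, the lowest without skin replicate 2. Of 11 cathepsin genes 8 passed as higher and 1 as lower, with a median of 0.47 and 0 called, and 2 to 7 passed as higher with 1 pool left out. Of 14 genes of MHC class I presentation 2 passed, or 1 with any pool but joint replicate 2 left out, and of 13 interferon-induced GTPases 3 passed as higher in the skin pools, or 0 to 5 with 1 pool left out, the lowest without skin replicate 2. Of 86 tested cytosolic ribosomal protein genes 1 passed, and 80 tested oxidative phosphorylation genes had log2 fold changes between -0.94 and 0.33, with medians of 0.11 for both lists. Of 12 genes of retinoic acid and vitamin D metabolism 6 were below the filter, including Aldh1a2, the enzyme by which migratory dendritic cells make retinoic acid, and 1 passed, Rarg, as lower in the joint pools (log2 fold change -0.58 ± 0.09 (SE), adjusted p = 0.00176).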

How the data were processed

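RNA sequencing counts per gene were deposited by the authors as one table of whole-number counts for the whole series. Per the study's methods and the submitters' processing notes, paired 100-base HiSeq reads were trimmed with Trim-Galore!, aligned with TopHat2 to mm10 (Ensembl release 87) and counted with HTSeq at default settings; the strand setting and the use made of Cufflinks, also listed, were not given in the sources used here. The 3 joint_steady and 3 skin_steady columns were used, each sample having been grouped by its title and labels, and the columns of inflamed samples were not. Of 49585 gene identifiers 49326 matched GENCODE M21; 22055 had no count in any of the 6 libraries. Summary lines of the counter were left out of library sizes. Reads with no feature made up 0.227 to 0.441%, ambiguous reads 1.97 to 2.37% and reads not uniquely aligned 10.7 to 12.7%.

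Genes passing filterByExpr (minimum count 10) were fitted together on all chromosomes with edgeR 4.0.16 (TMM, quasi-likelihood F-test) in R 4.3.3, and p-values were adjusted over all 15697 genes by the Benjamini-Hochberg method. Calls required an adjusted p under 0.05 and a log2 fold change beyond 1 in either direction, and autosomal genes alone are reported. Standard errors belong to the log2 fold change. Reads of genes on opposite strands that overlap could not be told apart; besides those noted in the text this holds for Bcl6, Bhlhe40, Ccna2, Ccr9, Csf1r, Dusp1, Fn1, Ifi30, Ikzf4, Irs2, Lef1 and Mmp19. The scripts were tested on simulated data. Genes were named by rule: for each direction, the 10 called genes ranked first by adjusted p whose pools do not overlap, the 5 with the largest fold change among those with a mean of at least 10 CPM in the higher group, and members of the gene lists. The members of the comparison and the lists were chosen with earlier results of these data known. Alternatives were another adjusted p, DESeq2 1.42.0, other scalings, filters and gene sets, a replicate block, and each pool left out in turn. An exact permutation test of 3 against 3 pools cannot go below p = 0.1 and was not used. Some list members are not reported here.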

Additional observations from a re-analysis of the deposited data

How the results depend on the processing

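The 792 calls (618 higher in the joint pools, 174 in the skin pools) became 326 (310 and 16) at an adjusted p under 0.001. The count higher in the skin pools was 300 without a filter on low counts and 102 over protein-coding genes alone. With each pool left out in turn the total ranged from 624 to 853, the joint count from 512 to 668 and the skin count from 101, without skin replicate 2, to 231. DESeq2 gave 607 and 163. Scaling by library totals gave 579 and 222, so that 72.3% of the calls were higher in the joint pools against 78.0%. The replicate numbers did not pair the pools (correlations of same-numbered deviations of -0.356, 0.0603 and -0.309), and a replicate block gave 552 and 114 calls. Of 132 named genes followed through these alternatives, 118 passed, 105 of them with any of the 6 pools left out, and the exceptions were C1qb, Ctla4, Gcsam, Gjb2, Ifi205, Ighg3, Ikzf4, Il2ra, Nr4a3, Prg4, Tcf4, Tnnt3 and Wdfy4. Some genes named above were not among the 132, so that these counts do not cover them. They include Mpo, Elane, Ly6g, Marco, Mcpt8, Prss34, Ccl2, Il6, Il22, Hspa1a, Hspa1b, Cd79a, Cd3e and Ccne1. Among the 132 the sign turned for 3 genes near 0: Ly6c2 (-0.055 to 0.14 with a pool left out, -0.022 by library totals), S1pr1 (-0.075 to 0.12, -0.038 by library totals) and Xcr1 (-0.15 to 0.12), and the cause was not tested. Immunoglobulin constant regions were not in the fits on protein-coding genes or without receptor segments. Genes under about 0.1 CPM could not be resolved at this depth.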

Other observations

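Among the most abundant genes called higher in the joint pools, chosen after their values were seen, were Socs3, Pim1, Fosl2 and Irs2. Socs3, which restrains signalling through STAT3, stood at 267, 250.2 and 282 CPM in the joint pools and 107, 91 and 85.4 CPM in the skin pools (log2 fold change 1.49 ± 0.11 (SE), adjusted p = 1.56e-05). Pim1, a kinase induced by the same cytokines, stood at 255, 302 and 348 CPM in the joint pools and 137, 125 and 128 CPM in the skin pools (log2 fold change 1.21 ± 0.12 (SE), adjusted p = 0.000118), and its gene overlaps Gm26885 on the other strand. Fosl2, a member of the AP-1 family, stood at 151, 405 and 303 CPM in the joint pools and 47.6, 27.8 and 37.1 CPM in the skin pools (log2 fold change 2.93 ± 0.33 (SE), adjusted p = 0.000257), and Irs2, an adaptor of insulin and interleukin 4 receptors, at 227, 466 and 399.6 CPM in the joint pools and 104, 64.1 and 65.1 CPM in the skin pools (log2 fold change 2.23 ± 0.27 (SE), adjusted p = 0.000435). For all 4 genes the 3 joint values lay above the 3 skin values. Tgfbi and Fn1, matrix proteins that monocytes and macrophages also secrete, differed by 4.54 ± 0.23 and 3.44 ± 0.33 (adjusted p = 1.48e-06 and 8.76e-05).

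The ribosomal RNA gene CT010467.1 took unequal shares of the libraries, at 140.3, 155 and 513 CPM in the joint pools and 610.5, 2750.1 and 448 CPM in the skin pools, and did not pass the test (log2 fold change -2.24 ± 0.69 (SE), adjusted p = 0.0611). It was called as higher in the skin pools without joint replicate 3 (-3.12, adjusted p = 0.0198), without skin replicate 3 (-2.65, adjusted p = 0.0495) and with no filter on low counts (adjusted p = 2.50e-20), and its log2 fold change was -0.98 without skin replicate 2 (adjusted p = 0.281).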
